A study of Mus musculus with 25 samples.

Results

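B16F10 luc2 and RET are murine melanoma cell lines, and their transcriptomes in culture were compared with each other in 10 of the 25 libraries of the series. The pair was chosen as the most similar of the lines, which used their expression values, and the cell line labels then gave 5 libraries of B16F10 luc2 and 5 libraries of RET. The other 15 libraries belong to the lines WT31, D4M and HCmel12, and the study compared all 5 lines for genes linked to their ability to colonize the liver. Total RNA was extracted from untreated cells at a confluency of 50%. The methods of the study give a limit of 3 passages after thawing together with the animal experiments.

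B16F10 luc2 was a purchased line that carries a luciferase reporter. According to the methods of the study, B16F10 holds a mutation in Trp53 and none in Braf, Kit or Nras. RET, also called RET1, was derived from MT/RET transgenic mice, in which the human RET receptor is driven by the mouse metallothionein 1 promoter. No allele or treatment is shared by both lines according to the labels. The methods of the study give the same RPMI 1640 medium with fetal calf serum for both lines, whereas the labels name it for RET and leave out B16F10 luc2. Each line is a single established line, so that the 5 replicates of a line share its history, and the labels call them biological replicates without saying how the cultures were separated. Driver, mouse of origin and culture history cannot be told apart in this design.

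Melanocytes arise from the neural crest and keep a program of pigment genes under the transcription factor MITF, in which tyrosinase and its relatives make melanin inside melanosomes. Melanomas keep this program to a variable degree, and they often carry an active MAPK pathway and a loss of the Cdkn2a locus. Many tumor cells also express interferon-stimulated genes at a low constant level, which are switched on by interferon receptors and which include antiviral proteins and chemokines.

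Libraries of B16F10 luc2 held between 24246815 and 25406305 estimated counts and those of RET between 24332170 and 25545975 counts. Levels are given as counts per 1000000 counts (CPM) of the scaled library, in which 3 counts corresponded to 0.111 to 0.124 CPM. A gene with at most 3 counts in every library of a line was taken as being at this floor, which covers counting error only. Correlations of log2 CPM across genes lay between 0.9864 and 0.9889 within B16F10 luc2, between 0.9858 and 0.9882 within RET and between 0.9435 and 0.948 across the lines. Mitochondrial genes took 2.63 to 4.02% of the counts in B16F10 luc2 and 2.85 to 4.9% in RET (exact two-sided permutation test, p = 0.23). Ribosomal protein genes took 4.14 to 4.45% and 4.37 to 4.97%, respectively (exact permutation test, p = 0.016). The 10 most abundant genes took 6.77 to 7.75% of the counts in B16F10 luc2 and 5.83 to 7.14% in RET (exact permutation test, p = 0.016), and 19341 to 20101 and 19869 to 20715 genes had at least 1 count (p = 0.048). The part of these measures in the differences between the lines was not tested.

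The labelled cell type was checked by marker genes. The 12 melanocyte markers summed to 28466 to 31553 CPM in B16F10 luc2 and to 15642 to 19617 CPM in RET, with 8 of the 12 higher in B16F10 luc2 and 0 higher in RET. Defining markers of macrophages (Ptprc, Adgre1), of keratinocytes (Krt5, Krt14), of endothelium (Cdh5) and of lymphocytes (Cd3e) were at the floor in both lines. The 7 fibroblast markers summed to 20.8 to 28.9 CPM in B16F10 luc2 and to 18.3 to 88.8 CPM in RET, with Dcn and Lum at the floor in both. Of the 4 tested fibroblast markers, 3 were higher in RET and 1, Col1a2, was higher in B16F10 luc2 (log2 difference 1.47 ± 0.19, adjusted p = 2.6e-07). Among those higher in RET, Col3a1 (log2 difference -3.41, adjusted p = 0.046) and Pdgfra (log2 difference -0.92, adjusted p = 0.032) lost their calls without RET replicate 3. Their log2 differences were then -3.41 (adjusted p = 0.062) and -0.75 (adjusted p = 0.094). The sums of the 7 macrophage markers (4.78 to 6.96 and 3.83 to 4.34 CPM), of the 6 endothelial markers (1.44 to 2.11 and 0.205 to 0.458 CPM) and of the 6 lymphocyte markers (0 to 0.274 and 0 to 0.118 CPM) were low. Of these, the endothelial marker Pecam1 (1.27 to 1.74 and 0.0395 to 0.262 CPM, log2 difference 3.17 ± 0.34, adjusted p = 1.7e-08) and the macrophage marker Lyz2 (1.39 to 2.19 and 0.593 to 0.801 CPM, log2 difference 1.29 ± 0.43, adjusted p = 0.015) were higher in B16F10 luc2, and 32.8% of the 31-base sequences of Lyz2 are shared with Lyz1. Cd68 was at 2.93 to 5.15 and 2.89 to 3.55 CPM and did not pass the test (log2 difference 0.14 ± 0.34, adjusted p = 0.77). In bulk RNA, fewer cells of a type and less RNA per cell cannot be told apart.

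Differences between the lines were small for most genes and very large for some. Of 15247 tested genes, 7845 (51.5%) were significantly different, of which 3847 (25.2% of the tested genes) were higher in B16F10 luc2 and 3998 (26.2%) were higher in RET (limma on voom weights, two-sided, adjusted p below 0.05). The median absolute log2 difference of the called genes was 0.53. Only 928 genes (6.09%) were called and at least 2-fold higher in B16F10 luc2, and 1247 genes (8.18%) were called and at least 2-fold higher in RET. The root mean square difference of the mean log2 CPM was 1.148 for B16F10 luc2 and RET and 1.835 to 2.884 for the other 9 pairs of lines, a description with no test, since the pair was chosen for this similarity. Log2 differences are given as B16F10 luc2 minus RET, ± the standard error of the fit, with a Benjamini-Hochberg adjusted p over all tested genes. Members of gene lists are read against the shares above and against the median log2 difference of all tested genes, which was 0.0.

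**Figure D1:**
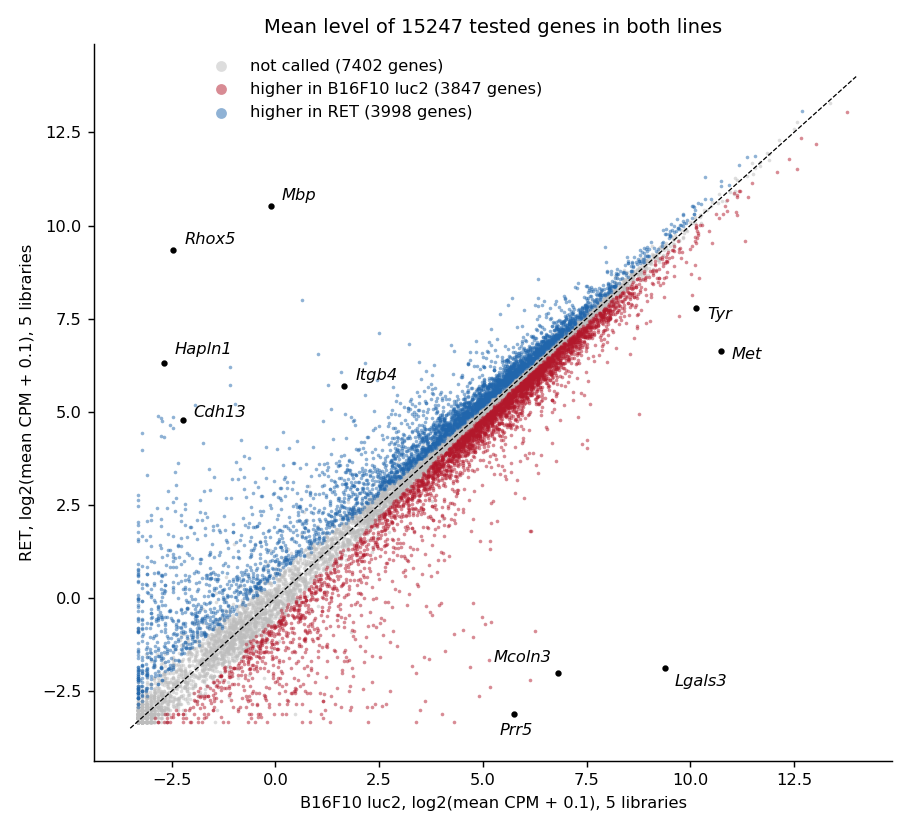
Mean level of each tested gene in B16F10 luc2 (horizontal axis) and RET (vertical axis), both as log2(mean CPM + 0.1) over 5 libraries. Genes with an adjusted p below 0.05 are colored by direction, the dashed line marks equal levels, and Lgals3 and Rhox5 lie farthest from it among the labelled genes.

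Lgals3, which codes for the sugar-binding protein galectin-3, showed the highest log2 difference in favor of B16F10 luc2 among genes with at least 20 CPM. The gene (GRCm38, chr14:47367751-47386160) reached 707, 702, 717, 614 and 625 CPM in the 5 libraries of B16F10 luc2. In RET it was at 0.277, 0.149, 0.236, 0.0801 and 0.116 CPM, close to the floor. The groups did not overlap, and the level was 3923-fold higher in B16F10 luc2 (log2 difference 11.89 ± 0.78, adjusted p = 1.7e-12).

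Prr5, a subunit of the mTOR complex 2 (chr15:84669620-84703673), was detected in B16F10 luc2 at 43.7, 57.1, 53.8, 59.1 and 56.3 CPM and had at most 1 count per library in RET. In relation to the floor it was at least 449.7-fold higher in B16F10 luc2. Mcoln3, a cation channel of endosomes and lysosomes (chr3:146117450-146141806), was at 108, 117, 119, 112 and 110.3 CPM in B16F10 luc2 and at 0.0395, 0.26, 0.197, 0.04 and 0.193 CPM in RET. These levels are 777-fold apart without overlap (log2 difference 9.70 ± 0.41, adjusted p = 4.9e-16). Further genes of this group were Arhgef17, a guanine nucleotide exchange factor (598-fold, log2 difference 9.14 ± 0.44, adjusted p = 6.6e-15), Lsp1, an actin-binding protein of leukocytes (171-fold, log2 difference 7.47 ± 0.37, adjusted p = 8.7e-15), and Ptk7, a receptor of planar cell polarity (144-fold, log2 difference 7.06 ± 0.42, adjusted p = 3.8e-13). Mgarp, Trim59, Pbxip1, Rab17, Art5 and Ggt1 completed the 12 genes, with log2 differences between 5.96 and 8.84.

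Rhox5, a homeobox gene of the reproductive tract on the X chromosome (chrX:37804842-37808876), showed the opposite pattern. It reached 685, 658, 611, 661 and 654 CPM in RET, while B16F10 luc2 had at most 3 counts in every library. This is at least 5256-fold higher in RET. Mbp, the myelin basic protein of Schwann cells and oligodendrocytes, was at 1596, 1605, 1273, 1435 and 1484 CPM in RET. In B16F10 luc2 it was at 0.635, 0.456, 1.32, 0.867 and 0.846 CPM, which is 1793-fold lower than in RET (log2 difference -10.85 ± 0.42, adjusted p = 9.5e-17). No library of one line came near the other.

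Hapln1, a link protein of hyaluronan in the extracellular matrix (chr13:89539796-89611652), was at 55.8, 93.7, 93.7, 63.3 and 85.9 CPM in RET. All libraries of B16F10 luc2 lay at the floor, which RET exceeded by at least 631-fold. Gdf15, a stress-induced cytokine, was at 40.9, 45.6, 31.7, 33.5 and 27.7 CPM in RET and at 0.0397 to 0.248 CPM in B16F10 luc2 (222-fold, log2 difference -7.78 ± 0.92, adjusted p = 8.7e-08). Prex1, an exchange factor for Rac, was at 21.3 to 26.7 CPM in RET and at 0.0384 to 0.207 CPM in B16F10 luc2 (291-fold, log2 difference -8.09 ± 0.34, adjusted p = 4.2e-16). The other genes of this group were Capn6, Xlr, Hspb1, Arhgap45, Tagln2, Rec114 and Eda2r, with log2 differences between -9.69 and -8.17. For Hspb1, 55.4% of the 31-base sequences of its transcripts also occur in other genes, mostly in the pseudogene Hsp25-ps1, so that its level is uncertain. This share was 24.4% for Xlr and 22.7% for Rec114.

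**Figure D2:**
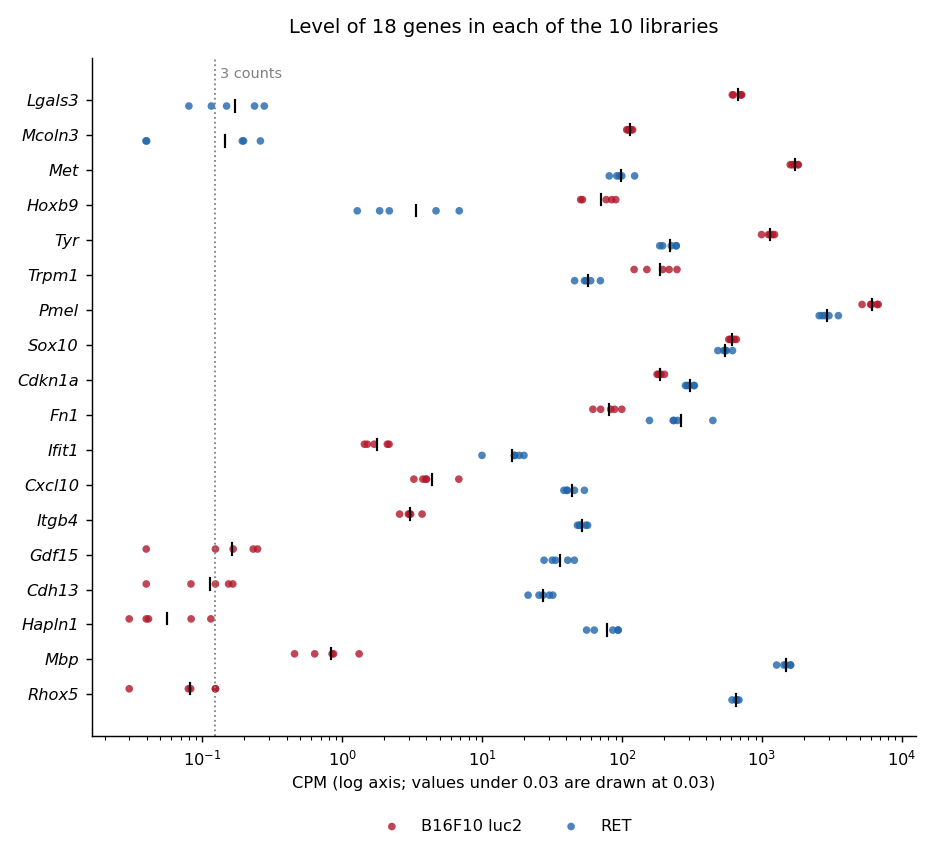
Level of 18 genes in CPM (log axis) in each of the 10 libraries, with B16F10 luc2 in red, RET in blue and a black bar for the mean of the 5 libraries. Sox10 overlaps between the lines, whereas Lgals3, Mbp and Rhox5 are separated by more than 2 decades, and the dotted line marks 3 counts.

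Several genes were found in 1 of both lines only, defined as at most 3 counts in every library of a line and at least 5 CPM in every library of the other. This held for 7 genes of B16F10 luc2 (0.0459% of the tested genes) and for 15 genes of RET (0.0984%), of which 1 and 4 lie on the X chromosome. Of all 15247 tested genes, 485 lie on the X chromosome. The counts of these genes come from fixed limits and have no test of their own, although each gene was also part of the fit. In B16F10 luc2 they included Nr5a1, which codes for the steroidogenic factor SF-1, with 19.6, 19.5, 21.7, 18.4 and 18.6 CPM and 0 counts in all RET libraries. Galnt6, an enzyme of O-glycosylation, was at 14.7 to 17.9 CPM. Gpm6b, a membrane protein of neurons and glia, was at 9.01 to 13.7 CPM in B16F10 luc2, and it was the only gene of the 7 with at least 1 CPM in every library of WT31, D4M and HCmel12. In RET, Tagln2, an actin-binding protein, was at 20.4, 29, 42.7, 26.3 and 23.3 CPM, and the other 3 lines also expressed it. Nid2, a basement membrane protein, and Raet1e, a ligand of the NK cell receptor NKG2D, were the other 2 genes of RET that all other lines expressed. They were at 7.8 to 15.6 and 14.4 to 17 CPM, and 55.5% of the 31-base sequences of Raet1e are shared with other genes, mostly with Raet1d. Raet1d itself was higher in B16F10 luc2, at 17.1 to 19.8 CPM against 8.47 to 11.3 CPM in RET (log2 difference 0.94 ± 0.11, adjusted p = 1.3e-07), and 67.1% of its 31-base sequences are shared with Raet1e, so that the levels of both are uncertain.

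Pigment genes were mostly higher in B16F10 luc2. Of 16 tested genes of pigment synthesis, 12 (75.0%) were higher in B16F10 luc2 and 1 (6.25%) was higher in RET, with a median log2 difference of 0.79. Tyr, the rate-limiting enzyme of melanin synthesis, stood at 1191, 1115, 1141, 1230.4 and 993 CPM in B16F10 luc2. In RET it was at 225, 195, 186, 244 and 244 CPM. The lines did not overlap, and the level was 5.18-fold higher in B16F10 luc2 (log2 difference 2.38 ± 0.16, adjusted p = 2.1e-12).

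The promoters of Tyr (chr7:87493463-87493762, minus strand) and of Tyrp1 (chr4:80833963-80834262, plus strand), which codes for a tyrosinase-related protein, are shown as examples of the group that was higher in B16F10 luc2. Sequences are from RefSeq (GRCm38.p6) and run from 250 bases before to 50 bases after the start of the gene. Capitals mark the letters TCATGTG, which were searched on both strands as the core of the M-box bound by MITF.
Tyr: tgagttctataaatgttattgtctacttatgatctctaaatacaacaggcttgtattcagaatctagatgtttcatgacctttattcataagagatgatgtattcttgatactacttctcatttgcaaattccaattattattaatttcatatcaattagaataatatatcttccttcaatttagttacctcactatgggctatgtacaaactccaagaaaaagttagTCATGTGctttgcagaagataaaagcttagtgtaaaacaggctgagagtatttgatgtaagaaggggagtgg
Tyrp1: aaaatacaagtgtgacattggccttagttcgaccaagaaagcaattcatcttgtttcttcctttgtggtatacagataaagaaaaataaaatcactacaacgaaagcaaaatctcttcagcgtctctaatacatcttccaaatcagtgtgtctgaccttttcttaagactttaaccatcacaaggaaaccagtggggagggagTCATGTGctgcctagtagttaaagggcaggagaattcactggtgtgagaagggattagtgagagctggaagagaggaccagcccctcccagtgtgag
TCATGTG or its reverse complement was present in 6 of the 9 higher members that had a promoter in the table, in 0 of 1 lower and in 1 of 2 members without a call. Over all genes, 4.31% of 27025 genes and 3.77% of 32851 promoters of this length held it. A match is a description of letters and not a bound site. These shares depend on how the list was composed, and no test was made of them.

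Among the other pigment genes, Slc24a4, an ion exchanger, was at 22.7, 16.3, 13, 16.8 and 13.6 CPM in B16F10 luc2 and at 1.82, 1.56, 2.64, 2.37 and 1.17 CPM in RET (8.62-fold, log2 difference 3.13 ± 0.51, adjusted p = 1.3e-05). Oca2, a melanosomal transporter, was 3.51-fold higher (log2 difference 1.81 ± 0.28, adjusted p = 4.4e-06), and Slc45a2, a further melanosomal transporter, was 2.52-fold higher (log2 difference 1.33 ± 0.13, adjusted p = 5.9e-09). Pmel, the fibril protein of melanosomes, was at 6133 ± 630.4 CPM in B16F10 luc2 and at 2924 ± 371 CPM in RET (mean ± SD, n = 5; log2 difference 1.07 ± 0.20, adjusted p = 6e-05). Tyrp1 differed by only 1.65-fold (log2 difference 0.73 ± 0.22, adjusted p = 0.008) at 13498 to 14306 CPM in B16F10 luc2 and 7502 to 9283 CPM in RET. Trpm1, a cation channel of melanocytes, was at 247, 195, 150.5, 217 and 122 CPM in comparison to 59.7, 45.8, 55.3, 70 and 53.9 CPM (log2 difference 1.68 ± 0.25, adjusted p = 2.9e-06), a call that was lost without a filter on low counts (adjusted p = 0.072). Dct, a further enzyme of the pathway, was 1.51-fold higher (log2 difference 0.60 ± 0.19, adjusted p = 0.011). The calls of Tyrp1 and Dct were lost with edgeR's quasi-likelihood test (adjusted p = 0.28 and 0.23), although no library of RET reached B16F10 luc2. Mreg, a regulator of melanosome transfer, was the member that was higher in RET (log2 difference -0.58 ± 0.07, adjusted p = 1.6e-07).

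Mitf itself was 1.6-fold higher in B16F10 luc2 (log2 difference 0.68 ± 0.13, adjusted p = 6.7e-05), with 592 to 780 CPM in B16F10 luc2 and 337 to 482 CPM in RET. The lineage factors Sox10 (log2 difference 0.17 ± 0.11, adjusted p = 0.22) and Pax3 (log2 difference -0.04 ± 0.06, adjusted p = 0.59) did not pass the test, and the same held for Mlana (log2 difference 0.17 ± 0.15, adjusted p = 0.36) and for the melanocortin receptor Mc1r (log2 difference 0.26 ± 0.16, adjusted p = 0.17). Sox10 was at 579 to 656 CPM in B16F10 luc2 and at 484 to 616 CPM in RET, so that the lines overlapped. In a fit of the 10 libraries alone, Sox10 (adjusted p = 0.027) and Mc1r (adjusted p = 0.0046) passed the test. Mc1r was named after its values were seen, and 20.1% of its 31-base sequences are shared with other genes.

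Genes of melanosome biogenesis and transport were called in both directions, with 11 of 30 (36.7%) higher in B16F10 luc2, 8 (26.7%) higher in RET and a median of 0.16. Besides Mcoln3, Gpnmb, a glycoprotein of melanosomes, was 1.79-fold higher in B16F10 luc2 (log2 difference 0.84 ± 0.12, adjusted p = 1.2e-06), and Rab27a, which ties melanosomes to the transport machinery, was 1.69-fold higher (log2 difference 0.77 ± 0.18, adjusted p = 0.001). On the other side, Hps6, a subunit of the BLOC-2 complex, was 1.86-fold higher in RET (log2 difference -0.90 ± 0.12, adjusted p = 9.1e-07), and Rab32, a GTPase of melanosome traffic, was 1.78-fold higher in RET (log2 difference -0.83 ± 0.15, adjusted p = 3.4e-05).

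Growth factor receptors of melanocytes and their ligands were called in both directions. Of 14 tested receptors and ligands, 2 (14.3%) were higher in B16F10 luc2 and 7 (50.0%) were higher in RET, with a median of -0.27. Met, the receptor of hepatocyte growth factor (chr6:17463800-17573980), was at 1816, 1809, 1593, 1695 and 1642 CPM in B16F10 luc2. In RET it was at 95.6, 81, 99.6, 123 and 91.7 CPM. All libraries of B16F10 luc2 were above all libraries of RET by 17.4-fold on average (log2 difference 4.14 ± 0.15, adjusted p = 2e-17). Kit, the receptor of stem cell factor, was low in both lines, with 8.81, 7.01, 5.07, 5.78 and 7.81 CPM in B16F10 luc2 and 0.633, 0.409, 0.946, 1.32 and 0.386 CPM in RET (9.33-fold, log2 difference 3.33 ± 0.41, adjusted p = 2e-07). In contrast, Erbb3, a neuregulin receptor, was at 25.2, 29.1, 28.7, 23.2 and 35.2 CPM in B16F10 luc2 and at 92.4, 91.8, 112, 94.9 and 96 CPM in RET (3.44-fold higher in RET, log2 difference -1.79 ± 0.11, adjusted p = 3.8e-13). Pdgfrb (log2 difference -0.94 ± 0.23, adjusted p = 0.0011) and Igf1r (log2 difference -0.77 ± 0.12, adjusted p = 4.9e-06), receptors for platelet-derived and insulin-like growth factors, were also higher in RET. The endothelin receptor Ednrb was at no more than 0.24 CPM in any of the 10 libraries.

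The RET transgene could not be checked, because the counts cover mouse genes and the transgene is human. Mouse Ret had at most 3 counts in every library of both lines, which says nothing about the transgene. Mt1, whose promoter drives the transgene, was at 385, 305, 382, 410.3 and 294 CPM in B16F10 luc2 and at 627, 585, 472, 583 and 598 CPM in RET. RET replicate 3 was the lowest of its line, but no library of B16F10 luc2 reached it (1.61-fold higher in RET, log2 difference -0.70 ± 0.15, adjusted p = 0.00029). Mt2, its neighbor, was at 117 to 189 CPM and 284 to 375 CPM, respectively (log2 difference -1.18 ± 0.18, adjusted p = 4.8e-06), but 58.1% of its 31-base sequences are shared with another gene. Metallothioneins bind zinc and copper and are induced by metals through Mtf1, which was slightly higher in RET (log2 difference -0.23 ± 0.08, adjusted p = 0.015), a call that was lost with log2(TPM + 1) without a filter (adjusted p = 0.072). Of 7 tested genes of this group, 4 (57.1%) were higher in RET and 0 in B16F10 luc2 with a median of -0.23.

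Genes downstream of ERK, which are used as a readout of MAPK activity, showed 8 of 25 members (32.0%) higher in B16F10 luc2 and 2 (8.0%) higher in RET, with a median of 0.59. Epha4, an ephrin receptor, was at 6.55, 5.1, 5.48, 6.4 and 6.07 CPM in B16F10 luc2 and at 0.633, 0.446, 0.197, 0.52 and 0.232 CPM in RET (14.6-fold, log2 difference 3.93 ± 0.26, adjusted p = 2.4e-12). Spry1, a feedback inhibitor of receptor kinases, was at 28.7, 20.4, 20.7, 21.8 and 22.7 CPM and 4.94, 5.15, 6.26, 5.48 and 3.98 CPM, respectively (4.43-fold, log2 difference 2.15 ± 0.12, adjusted p = 1.3e-13), and 23.1% of its 31-base sequences are shared with another gene. Epha2 was higher in B16F10 luc2 as well (log2 difference 1.29 ± 0.22, adjusted p = 1.8e-05). The 2 members higher in RET were the interleukin-1 receptor subunit Il1rap (log2 difference -1.12 ± 0.14, adjusted p = 2.4e-07) and the feedback inhibitor Spred1 (log2 difference -0.27 ± 0.07, adjusted p = 0.0013), both named after their values were seen. The phosphatase Dusp6 (log2 difference -0.20 ± 0.17, adjusted p = 0.35) and the immediate early gene Egr1 (log2 difference 1.80 ± 0.86, adjusted p = 0.084), which were named after their values were seen, did not pass the test. Egr1 ranged from 6.19 to 29.2 CPM in B16F10 luc2 and from 2.38 to 8.04 CPM in RET, with overlap. It passed with edgeR's quasi-likelihood test (adjusted p = 0.0039), and Dusp6 passed in a fit of the 10 libraries alone (adjusted p = 0.023).

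Drivers and suppressors of melanoma differed by small amounts. Of 30 genes, 5 (16.7%) were higher in B16F10 luc2 and 13 (43.3%) were higher in RET, and 0 of the former and 1 of the latter reached 2-fold, the telomerase subunit Tert (log2 difference -1.33 ± 0.29, adjusted p = 0.00037), named after its values were seen. The call of Tert was lost when TPM were fitted (adjusted p = 0.18 with a pseudocount of 1 or 0.1, and 0.36 without a filter). Trp53, which is mutated in B16F10, was at 182 to 207 CPM and 185 to 194 CPM and overlapped (log2 difference 0.04 ± 0.07, adjusted p = 0.65). Braf (log2 difference -0.09 ± 0.07, adjusted p = 0.25) overlapped too, but its difference passed the test when TPM were fitted (adjusted p = 0.0078 with a pseudocount of 1). Map2k2, the kinase MEK2, had the highest difference of the called members in favor of B16F10 luc2 (log2 difference 0.30 ± 0.07, adjusted p = 0.00054). Nras had a small difference (log2 difference 0.17 ± 0.06, adjusted p = 0.017), which changed its sign to -0.05 in the fits of TPM, the deposited length-scaled unit. Its call was also lost with library size scaling (adjusted p = 0.083) and without a filter on low counts (adjusted p = 0.087). Levels of RNA do not show whether the protein is functional.

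The Cdkn2a locus on chromosome 4, which codes for the inhibitors p16 and p19Arf, had 0 counts in all 10 libraries. A count of 0 allows a level of up to 3 counts, or 0.111 to 0.124 CPM. Cdkn2b, the adjacent inhibitor p15, had at most 1 count per library. Mtap, the next gene, was at 389 to 449 CPM in B16F10 luc2 and at 465 to 529 CPM in RET (log2 difference -0.25 ± 0.08, adjusted p = 0.013). It was named after its values were seen, and its call was lost with log2(TPM + 1) without a filter (adjusted p = 0.092).

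Of 36 targets of p53, 16 (44.4%) were higher in RET and 5 (13.9%) in B16F10 luc2, with a median of -0.2. Eda2r, a death domain receptor on the X chromosome, was at 26.9, 29.1, 30.3, 30.3 and 28.4 CPM in RET and at the floor in all libraries of B16F10 luc2 (at least 233-fold higher in RET). Together with Gdf15 and Ak1, an adenylate kinase (3.15-fold, log2 difference -1.65 ± 0.17, adjusted p = 9.4e-09), it formed the 3 members with the largest difference among those with at least 5 CPM in RET. Cdkn1a, the inhibitor p21, was at 187, 182, 189.7, 178 and 201 CPM in B16F10 luc2 and at 298, 325, 329, 284 and 292 CPM in RET (1.63-fold, log2 difference -0.70 ± 0.14, adjusted p = 0.00021). Mdm2, the ubiquitin ligase of p53 (log2 difference -0.46 ± 0.09, adjusted p = 0.00012), and Bax, an apoptosis effector (log2 difference -0.29 ± 0.08, adjusted p = 0.0026), were higher in RET by smaller amounts. In B16F10 luc2, Fbxw7 (log2 difference 0.98 ± 0.07, adjusted p = 2.5e-11) and Tnfrsf10b (log2 difference 0.61 ± 0.14, adjusted p = 0.00053) were higher. Bax was picked after its values were seen.

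Interferon response genes were largely higher in RET. Of 52 tested members, 33 (63.5%) were higher in RET and 4 (7.69%) were higher in B16F10 luc2, and the median log2 difference was -1.48. At least 2-fold differences were found for 29 members in RET and for 1 in B16F10 luc2, the feedback inhibitor Socs1, which was named after its values were seen. Cxcl10, a chemokine for T cells, was at 38.4, 45.7, 53.8, 40.7 and 40.2 CPM in RET. In B16F10 luc2 it was at 3.25, 3.77, 4, 3.96 and 6.81 CPM, with replicate 5 as the highest. The lines did not overlap (10-fold higher in RET, log2 difference -3.36 ± 0.30, adjusted p = 8.4e-10).

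The promoters of the antiviral genes Ifit1 (chr19:34640639-34640938, plus strand) and Isg15 (chr4:156200769-156201068, minus strand) and of Cxcl10 (chr5:92348840-92349139, minus strand) are shown as examples of this group. Capitals mark the letters GAAA followed by any 2 bases and a second GAAA, on either strand, a core of the interferon-stimulated response element, with overlapping matches written as 1 run.
Ifit1: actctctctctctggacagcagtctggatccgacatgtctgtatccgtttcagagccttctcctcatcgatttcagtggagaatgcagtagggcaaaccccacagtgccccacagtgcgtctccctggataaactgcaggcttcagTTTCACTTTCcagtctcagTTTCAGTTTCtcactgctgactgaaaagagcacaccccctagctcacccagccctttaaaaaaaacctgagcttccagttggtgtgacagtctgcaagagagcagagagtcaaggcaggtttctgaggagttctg
Isg15: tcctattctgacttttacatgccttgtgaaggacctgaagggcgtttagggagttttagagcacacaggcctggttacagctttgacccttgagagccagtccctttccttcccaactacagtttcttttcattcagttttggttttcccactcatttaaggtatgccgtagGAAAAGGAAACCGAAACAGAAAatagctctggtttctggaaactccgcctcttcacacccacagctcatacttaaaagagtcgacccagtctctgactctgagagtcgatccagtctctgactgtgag
Cxcl10: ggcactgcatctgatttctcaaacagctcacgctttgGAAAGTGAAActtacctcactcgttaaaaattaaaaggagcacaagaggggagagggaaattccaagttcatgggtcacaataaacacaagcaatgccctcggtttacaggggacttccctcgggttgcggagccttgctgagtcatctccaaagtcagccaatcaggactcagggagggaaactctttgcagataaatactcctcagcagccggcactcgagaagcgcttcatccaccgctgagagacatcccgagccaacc
In this window Ifit1 held 2 matches, Isg15 held 3 and Cxcl10 held 1. Of the 24 members higher in RET with a promoter in the table, 16 held a match, in comparison to 3 of 12 members without a call and 1 of 3 members higher in B16F10 luc2. The letters occurred in 3.99% of 27025 genes and in 3.44% of 32851 promoters. Members without a call include receptors and kinases of the pathway, so that these shares depend on how the list was composed. No test was made of them.

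Ifit1 was at 18.4, 17.1, 9.97, 19.9 and 17 CPM in RET and at 1.51, 2.16, 2.1, 1.44 and 1.69 CPM in B16F10 luc2 (9.25-fold, log2 difference -3.18 ± 0.39, adjusted p = 1.9e-07). RET replicate 3 was the lowest of its line and still above all libraries of B16F10 luc2. Isg15, a ubiquitin-like modifier, was at 5.89, 5.5, 3.7, 6.04 and 6.6 CPM in RET and at 0.675, 0.911, 0.948, 0.782 and 0.731 CPM in B16F10 luc2 (6.86-fold, log2 difference -2.73 ± 0.53, adjusted p = 0.0001). Rsad2, the antiviral protein viperin, was 4.68-fold higher in RET (log2 difference -2.23 ± 0.32, adjusted p = 1.5e-06). Ifit1, Isg15 and Rsad2 were chosen after their values were seen. Trim25, the ubiquitin ligase of the RNA sensor RIG-I, was at 16.8, 17, 10.6, 18.4 and 16.4 CPM in RET and at 0.595 to 1.28 CPM in B16F10 luc2 (16.9-fold, log2 difference -4.09 ± 0.36, adjusted p = 5.1e-10). Oas1a, an RNA sensor, was 35.9-fold higher in RET (log2 difference -5.03 ± 0.61, adjusted p = 1.5e-07), although 68.8% of its 31-base sequences are shared with other genes, mostly with Oas1g.

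Of the signaling genes above these targets, Stat2 was chosen after its values were seen and did not pass the test (log2 difference -0.22 ± 0.20, adjusted p = 0.39). The receptors of type I interferon, Ifnar1 (log2 difference 0.33 ± 0.06, adjusted p = 4.8e-05) and Ifnar2 (log2 difference 0.26 ± 0.07, adjusted p = 0.0024), and Tmem173, the DNA sensor adaptor STING (1.56-fold, log2 difference 0.64 ± 0.12, adjusted p = 9e-05), were higher in B16F10 luc2. In contrast, Irf9, a subunit of the transcription factor ISGF3 (log2 difference -1.83 ± 0.36, adjusted p = 0.00014), and Irf1 (log2 difference -0.57 ± 0.15, adjusted p = 0.0026) were higher in RET. The RNA sensors Ddx58 (log2 difference -2.87 ± 0.31, adjusted p = 2e-08) and Ifih1 (log2 difference -1.42 ± 0.24, adjusted p = 2e-05) and the DNA sensor Cgas (log2 difference -0.58 ± 0.12, adjusted p = 0.00026) were also higher in RET, and these 5 genes were chosen after their values were seen.

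**Figure D3:**
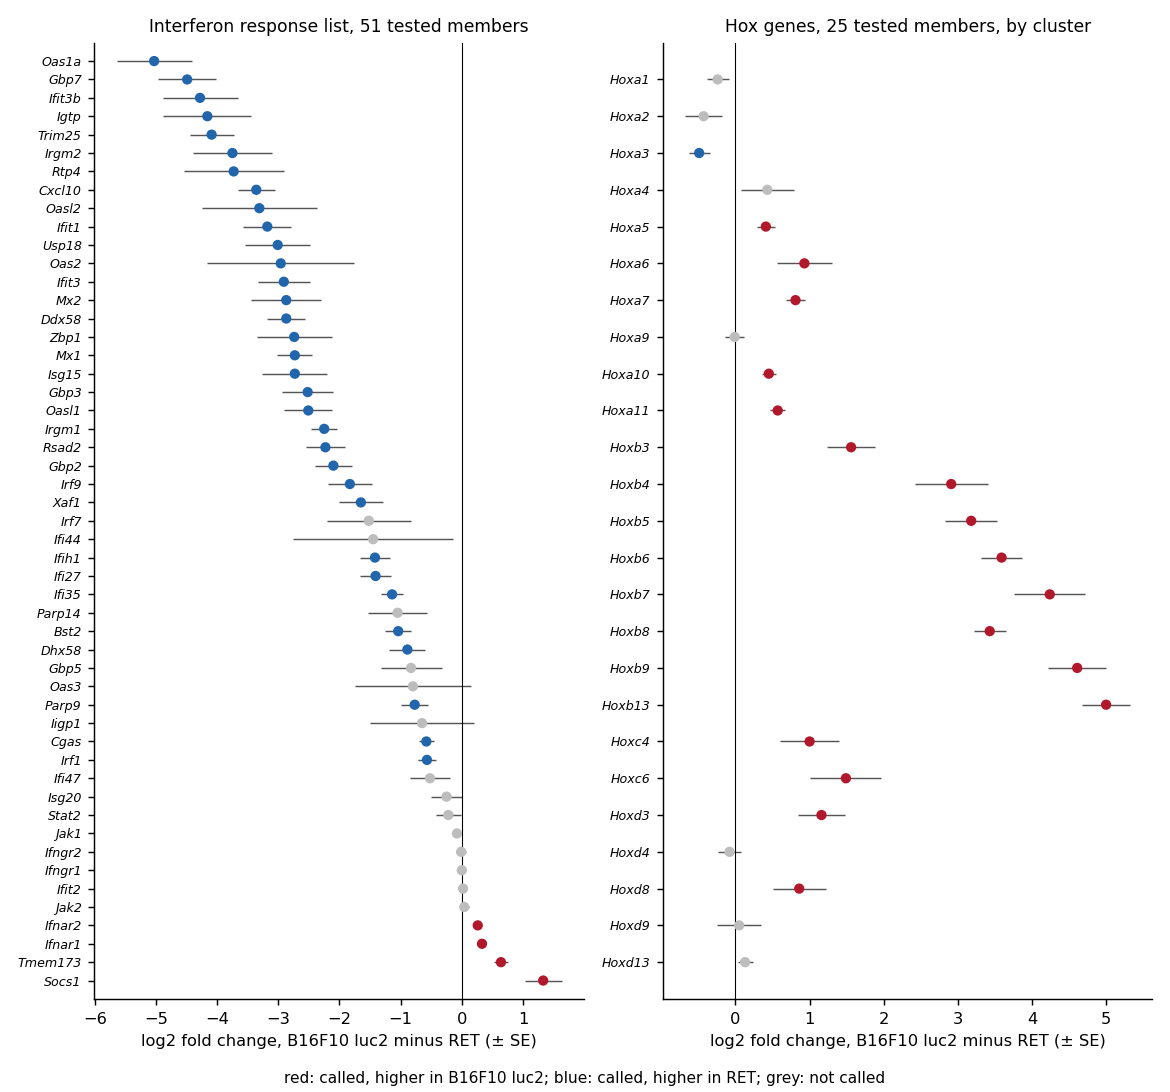
Log2 difference (B16F10 luc2 minus RET) of 51 of the 52 tested interferon response genes and of each tested Hox gene, with bars for the SE of the fit. Interferon response genes lie mostly to the left of 0, as far as -5.03 for Oas1a, whereas all 8 tested genes of the Hoxb cluster lie to the right, between 1.56 and 5.00.

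Genes of antigen presentation by MHC class I and its partners were called in both directions, with 17 of 33 (51.5%) higher in RET, 7 (21.2%) higher in B16F10 luc2 and a median of -0.59. The 7 were H2-Q4, the chaperones Canx and Pdia3 and the ligands of immune receptors Cd276, Pvr, Nectin2 and Raet1d. In contrast, all called members of the Tap, Tapbp, Psmb and Psme families and the regulator Nlrc5 were higher in RET. Canx, Pdia3, Pvr and these members other than Tap1 were named after their values were seen. Tap1, a subunit of the peptide transporter, was at 7.35, 5.5, 5.63, 7.26 and 5.63 CPM in RET and at 0.992, 0.705, 1.23, 1.28 and 0.731 CPM in B16F10 luc2 (6.36-fold, log2 difference -2.67 ± 0.28, adjusted p = 1.1e-08). The class I heavy chain H2-K1 was at 9.72, 5.31, 3.51, 7.49 and 6.23 CPM in RET and at 2.18, 1.62, 2.93, 2.62 and 1.81 CPM in B16F10 luc2 (log2 difference -1.48 ± 0.49, adjusted p = 0.014). In contrast, the class I gene H2-Q4 was at 2.55, 2.87, 3.54, 3.35 and 2.35 CPM in B16F10 luc2 and at 0.137, 0.209, 0.121, 0.0733 and 0.197 CPM in RET (log2 difference 4.19 ± 0.64, adjusted p = 5.2e-06). H2-D1 (log2 difference -0.10 ± 0.16, adjusted p = 0.66) and B2m (log2 difference -0.09 ± 0.10, adjusted p = 0.5) did not pass the test, and these 4 genes were chosen after their values were seen. Of the 31-base sequences, 22.8% of H2-K1, 26.9% of H2-D1 and 53% of H2-Q4 are shared with other genes. Ulbp1, another ligand of NKG2D, was 3.79-fold higher in RET (log2 difference -1.92 ± 0.17, adjusted p = 5.6e-10). In contrast, Nectin2, a ligand of TIGIT and DNAM-1, was at 85, 103, 112, 109.7 and 96.3 CPM in B16F10 luc2 and at 20.5, 18.7, 14.1, 19.5 and 16.6 CPM in RET (5.67-fold, log2 difference 2.51 ± 0.11, adjusted p = 1.3e-15), and Cd276, the checkpoint ligand B7-H3, was 1.86-fold higher in B16F10 luc2 (log2 difference 0.89 ± 0.11, adjusted p = 1.8e-07).

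Of 30 NF-kB subunits, targets and chemokines, 7 (23.3%) were higher in B16F10 luc2 and 11 (36.7%) were higher in RET, with a median of -0.16. The chemokine Cx3cl1 was 9.52-fold higher in RET (log2 difference -3.21 ± 0.29, adjusted p = 8.5e-10), and Ccl5 was 4.26-fold higher (log2 difference -2.15 ± 0.29, adjusted p = 8.6e-07). The inhibitor Tnip1 (log2 difference 1.14 ± 0.08, adjusted p = 3.2e-12) and the subunit Nfkb1 (log2 difference 0.60 ± 0.07, adjusted p = 1.7e-07) were higher in B16F10 luc2.

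Hox genes, which keep the position of a cell along the body axis, and their cofactors were higher in B16F10 luc2 in 18 of 29 tested members (62.1%) and higher in RET in 3 (10.3%), with a median of 0.81. In the Hoxb cluster (chr11:96194316-96368256), all 8 tested of 10 listed genes were higher in B16F10 luc2, with a median of 3.51. Hoxb9 was at 90.2, 84.3, 50.6, 52.1 and 77 CPM in B16F10 luc2 and at 2.17, 4.68, 6.86, 1.28 and 1.85 CPM in RET (21-fold, log2 difference 4.61 ± 0.39, adjusted p = 2.7e-10). Hoxb8 was at 6.51, 6.01, 5.69, 5.69 and 6.11 CPM and 0.712, 0.557, 0.709, 0.32 and 0.502 CPM, respectively (10.7-fold, log2 difference 3.43 ± 0.21, adjusted p = 7.7e-13). The other members were low. Hoxb3, Hoxb5 and Hoxb6, named after their values were seen, reached 2.88, 2.04 and 4.92 CPM at most in B16F10 luc2 and were 2.88, 9.96 and 11.5 times the level of RET. Of the 31-base sequences of Hoxb3, 52.7% are shared with other genes, mostly with Hoxb3os. In the Hoxa cluster 5 of 10 tested genes were higher in B16F10 luc2 and 1 in RET (median 0.42), and in the Hoxd cluster 2 of 5 were higher in B16F10 luc2. Both tested Hoxc genes were higher in B16F10 luc2. The cofactor Meis2 was 1.88-fold higher in B16F10 luc2 (log2 difference 0.91 ± 0.11, adjusted p = 9e-08).

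Neural crest and Schwann genes included 10 of 29 members (34.5%) higher in RET and 2 (6.90%) higher in B16F10 luc2, with a median of -0.26. The 5 Schwann cell markers summed to 61.2 to 85 CPM in B16F10 luc2 and to 1405 to 1720 CPM in RET. Without Mbp, the sums were 60.6 to 84.5 and 115 to 132 CPM, so that most of the difference came from this gene. L1cam, an adhesion molecule of axons, was 5.81-fold higher in RET (log2 difference -2.59 ± 0.15, adjusted p = 3e-13), and Ncam1 was 2.09-fold higher in B16F10 luc2 (log2 difference 1.08 ± 0.14, adjusted p = 4e-07).

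Integrins and other receptors for the extracellular matrix, such as syndecans, were higher in B16F10 luc2 for 9 of 29 members of the list (31%) and higher in RET for 11 (37.9%), with a median of 0.12. Itga5, the fibronectin receptor subunit, was at 103, 111, 116, 113 and 101 CPM in B16F10 luc2 and at 11.2, 11.6, 14.3, 13.7 and 12.2 CPM in RET (8.62-fold, log2 difference 3.11 ± 0.09, adjusted p = 2.6e-19). Itgb3, the partner of the alpha V subunit, was 3.44-fold higher in B16F10 luc2 (log2 difference 1.78 ± 0.12, adjusted p = 2.8e-12). Itgb4 and Itga6, which pair as a laminin receptor, were both higher in RET. Itgb4 was at 49.9, 55.1, 56.7, 49.6 and 48 CPM in RET and at 3.02, 2.57, 3.72, 2.97 and 3.08 CPM in B16F10 luc2 (16.9-fold, log2 difference -4.08 ± 0.14, adjusted p = 1.6e-17), and Itga6 was 2.68-fold higher (log2 difference -1.42 ± 0.15, adjusted p = 8.4e-09). Itga1, a collagen receptor subunit, was 2.73-fold higher in RET (log2 difference -1.46 ± 0.28, adjusted p = 8.2e-05).

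Cadherins and other adhesion molecules were higher in RET for 11 of 28 members (39.3%) and higher in B16F10 luc2 for 4 (14.3%), with a median of -0.31. Cdh13, a cadherin anchored to the membrane by a lipid, was at 32, 25.5, 21.3, 30.2 and 27.2 CPM in RET and at 0.0397, 0.0829, 0.165, 0.124 and 0.154 CPM in B16F10 luc2 (241-fold, log2 difference -7.77 ± 0.58, adjusted p = 2.3e-11). Jam2, a junctional adhesion molecule, was 25.1-fold higher in RET (log2 difference -4.74 ± 0.38, adjusted p = 7.6e-11). Mcam, a melanoma cell adhesion molecule, was at 363, 479, 379.8, 442 and 457 CPM in B16F10 luc2 and at 109, 194, 231, 122 and 139 CPM in RET (2.67-fold, log2 difference 1.47 ± 0.25, adjusted p = 2.1e-05). Axon guidance genes were called in both directions, with 17 of 63 (27.0%) and 23 (36.5%) and a median of -0.08. They included the receptor Plxna4 (53.8-fold, log2 difference 5.78 ± 0.43, adjusted p = 2e-11) and the semaphorin Sema7a (21.7-fold, log2 difference 4.43 ± 0.35, adjusted p = 8.3e-11) on the side of B16F10 luc2. On the side of RET they included the ephrin receptor Ephb6 (21.1-fold, log2 difference -4.47 ± 0.24, adjusted p = 4.7e-14) and the semaphorin Sema6a (7.25-fold, log2 difference -2.85 ± 0.14, adjusted p = 1.4e-14).

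Extracellular matrix genes and proteases were higher in RET for 28 of 81 members (34.6%) and higher in B16F10 luc2 for 16 (19.8%), with a median of -0.28. Fbln5, an elastic fiber protein, was at 431, 441, 395, 482 and 420.2 CPM in B16F10 luc2 and at 29.9, 31.2, 33.5, 26.8 and 31.9 CPM in RET (14.2-fold, log2 difference 3.82 ± 0.14, adjusted p = 7.3e-17). Col4a4, a basement membrane collagen, was 69.8-fold higher in B16F10 luc2 (log2 difference 5.99 ± 0.39, adjusted p = 2.1e-12). Col9a1, a cartilage collagen, was 19.2-fold higher in RET (log2 difference -4.26 ± 0.38, adjusted p = 5.8e-10), and the protease Adamts9 was 16.7-fold higher (log2 difference -4.02 ± 0.37, adjusted p = 1.3e-09). Among 36 regulators and markers of mesenchymal transition, 12 (33.3%) were higher in RET and 3 (8.33%) in B16F10 luc2, with a median of -0.26. The 12 included the epithelial cadherin Cdh1 (log2 difference -1.65, adjusted p = 0.013) and the transcription factors Tcf4 and Prrx1. The factors Snai1, Snai2, Twist1, Twist2, Zeb1 and Zeb2 and the cadherin Cdh2 were not called. All of these genes were named after their values were seen. Beside these lists and that of the matrix, the sum of the fibroblast markers was 18.3 to 88.8 CPM in RET and 20.8 to 28.9 CPM in B16F10 luc2, with overlap. The highest sum of RET was that of replicate 3, in which the marker Col1a1 was highest. The part of the fibroblast markers in these lists was not tested. Vim, the intermediate filament vimentin, was at 2507 ± 109 CPM in RET and at 1314 ± 143 CPM in B16F10 luc2 (mean ± SD, n = 5; log2 difference -0.94 ± 0.09, adjusted p = 2.2e-09). Fn1, fibronectin, was at 157, 249, 446, 235 and 232 CPM in RET and at 61.9, 99.6, 83, 70.3 and 88.5 CPM in B16F10 luc2 (3.27-fold, log2 difference -1.64 ± 0.22, adjusted p = 8e-07). The receptor kinase Axl was 2.31-fold higher in B16F10 luc2 (log2 difference 1.28 ± 0.22, adjusted p = 2.5e-05), with overlap between RET replicate 3 and B16F10 luc2.

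Angiogenic ligands, receptors and inhibitors showed 9 of 48 members (18.8%) higher in B16F10 luc2 and 13 (27.1%) higher in RET, with a median of 0.04. Sparc, a matrix-binding glycoprotein, was at 2479.9, 2734, 2461, 2524 and 2503 CPM in B16F10 luc2 and at 643, 733, 947, 733 and 758 CPM in RET (3.33-fold, log2 difference 1.75 ± 0.09, adjusted p = 8.9e-15). The protease inhibitor Timp1 (4.74-fold, log2 difference 2.26 ± 0.16, adjusted p = 7.2e-12) and the thrombospondin Thbs3 (4.17-fold, log2 difference 2.06 ± 0.13, adjusted p = 1.7e-12) were higher in B16F10 luc2 as well. Thbs1, a thrombospondin that inhibits angiogenesis, and Spp1, osteopontin, were higher in RET. Vegfa, the main angiogenic ligand, was named after its values were seen and did not pass the test (log2 difference 0.35 ± 0.19, adjusted p = 0.12), but passed in a fit of the 10 libraries alone (adjusted p = 0.0093).

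In RET, replicate 3 stood apart for some genes, among them Thbs1 and Id3. Thbs1 was at 11.2, 24, 83.1, 15.6 and 29 CPM in RET and at 4.58 to 6.08 CPM in B16F10 luc2 (log2 difference -2.32 ± 0.57, adjusted p = 0.0012). Without this library, the log2 difference was -1.89 for Thbs1 (adjusted p = 0.0015) and -2.12 for Spp1 (adjusted p = 0.0011). The call of Spp1 was lost without a filter on low counts (adjusted p = 0.49). The fibroblast marker Col1a1 was also highest in this library, with 11.1, 16.1, 81, 10.2 and 35.7 CPM in RET and 3.97 to 11.2 CPM in B16F10 luc2, and the lines overlapped (log2 difference -1.68 ± 0.48, adjusted p = 0.0044). Without this library the mean of RET was 18.3 CPM in place of 30.8 CPM (log2 difference -1.22, adjusted p = 0.0046). Id3, an inhibitor of helix-loop-helix factors and target of BMP signaling, was at 7.27, 12, 73.7, 6.97 and 12.4 CPM in RET, and B16F10 luc2 was split as well, at 132, 87.3, 8.12, 13.7 and 104 CPM. Its call (log2 difference 1.59 ± 0.67, adjusted p = 0.048) was lost when any of B16F10 luc2 replicates 1, 2 and 5 or of RET replicates 1, 2, 4 and 5 was left out, with adjusted p between 0.086 and 0.13. The call of Id3 was also lost with library size scaling (adjusted p = 0.056) and in the fits of TPM (adjusted p between 0.054 and 0.14). The same held without a filter on low counts and in a fit of the 10 libraries alone (adjusted p = 0.13 in both). Without RET replicate 3, the mean of RET was 9.65 CPM in place of 22.5 CPM and Id3 passed the test (log2 difference 2.18, adjusted p = 0.017). Over all tested genes, RET replicate 3 was the outlying library of its line in 1.9% of the genes, in comparison to 0.708 to 2.03% for the other 9 libraries. The part of this library's state in the results was not tested.

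Cell cycle genes were called in both directions, with 15 of 62 (24.2%) higher in B16F10 luc2, 11 (17.7%) higher in RET and a median of 0.08. The proliferation marker Mki67, named after its values were seen, was at 265 to 387 CPM in B16F10 luc2 and at 343 to 401 CPM in RET and did not pass the test (log2 difference -0.22 ± 0.17, adjusted p = 0.28), but passed in a fit of the 10 libraries alone (adjusted p = 0.04). Ccnd3, a cyclin of the G1 phase, was at 387, 494, 552, 543 and 473 CPM in B16F10 luc2 and at 179, 167, 174, 170.1 and 148 CPM in RET (2.92-fold, log2 difference 1.54 ± 0.10, adjusted p = 3.9e-12). Ccne2, a cyclin of entry into S phase, showed the opposite direction, at 24.2, 19.7, 19.8, 21.2 and 27 CPM and 52.6, 70.5, 59.3, 61.4 and 63.9 CPM (2.75-fold higher in RET, log2 difference -1.46 ± 0.15, adjusted p = 8e-09). Tyms, which makes thymidylate, was 2.08-fold higher in RET (log2 difference -1.06 ± 0.11, adjusted p = 1.7e-08), and Rrm2, the ribonucleotide reductase subunit, was 1.67-fold higher in B16F10 luc2 (log2 difference 0.74 ± 0.14, adjusted p = 7.9e-05).

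Glycolysis and hypoxia genes were called in both directions, with 14 of 42 (33.3%) higher in B16F10 luc2, 12 (28.6%) higher in RET and a median of -0.03. Hk1, a hexokinase, was at 258, 256, 294, 268 and 249 CPM in RET and at 52.1, 53.6, 51.8, 49.1 and 54 CPM in B16F10 luc2 (5.08-fold, log2 difference -2.34 ± 0.08, adjusted p = 3.8e-18). Eno2, the neuronal enolase, was 11-fold higher in B16F10 luc2 (log2 difference 3.45 ± 0.20, adjusted p = 2.1e-13), and so was the lactate exporter Slc16a3 (6.3-fold, log2 difference 2.68 ± 0.28, adjusted p = 1.1e-08). Nuclear genes of oxidative phosphorylation were higher in B16F10 luc2 for 29 of 78 members (37.2%) and higher in RET for 9 (11.5%), with a median of 0.08, and 1 member reached 2-fold. This member was Ppargc1a, the coactivator PGC-1 alpha of mitochondrial biogenesis, at 186, 166, 138, 192 and 144 CPM in B16F10 luc2 and at 50.3, 47.7, 34.2, 48.4 and 46.7 CPM in RET (3.63-fold, log2 difference 1.86 ± 0.17, adjusted p = 1.1e-09). Subunits of complex I such as Ndufb10 (log2 difference 0.69 ± 0.06, adjusted p = 1e-09) and Ndufa9 (log2 difference -0.30 ± 0.04, adjusted p = 2.8e-07) differed in opposite directions.

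**Figure D4:**
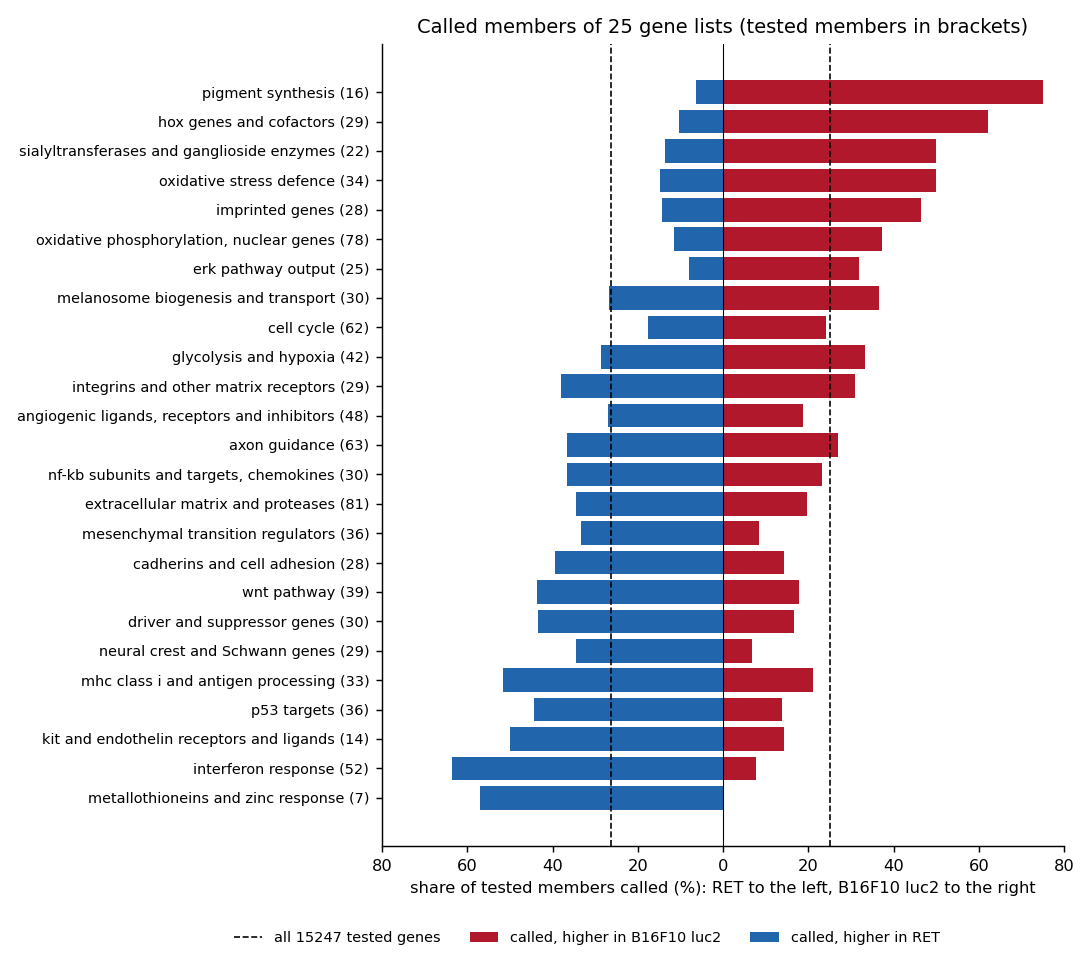
Share of tested members (%) called higher in B16F10 luc2 (right, red) and in RET (left, blue) for 25 gene lists, with the number of tested members in brackets. Dashed lines mark the shares of all tested genes, 25.2% and 26.2%, and the pigment list (75.0%) and the interferon list (63.5%) reach the highest shares of these lists.

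Genes of oxidative stress defence were higher in B16F10 luc2 for 17 of 34 members (50%) and higher in RET for 5 (14.7%), with a median of 0.25. Sialyltransferases and ganglioside enzymes were higher in B16F10 luc2 for 11 of 22 members (50%) and in RET for 3 (13.6%), with a median of 0.18. Of 28 imprinted genes, 13 (46.4%) were higher in B16F10 luc2 and 4 (14.3%) in RET (median 0.26). The Wnt pathway was split the other way, with 7 of 39 members (17.9%) higher in B16F10 luc2 and 17 (43.6%) higher in RET (median -0.22). The other 9 lists had between 20 and 56.5% of their members called in either direction, with medians between -0.42 and 0.05. The melanocyte transcription factors are counted among these 9 lists. Several genes of these lists are given with their values. Gria4, a glutamate receptor, was at 16.9 to 18.8 CPM in RET and at 0.0415 to 0.317 CPM in B16F10 luc2 (90.2-fold, log2 difference -6.55 ± 0.56, adjusted p = 3.3e-10). Tgfb1, transforming growth factor beta 1, was 8.68-fold higher in B16F10 luc2 (log2 difference 3.11 ± 0.34, adjusted p = 2.9e-08), and Tgfb2 was 3.23-fold higher in RET (log2 difference -1.70 ± 0.14, adjusted p = 1.7e-10). Notch1 was 3.58-fold higher in RET (log2 difference -1.87 ± 0.18, adjusted p = 3.3e-09). The imprinted gene Plagl1, a zinc finger factor, was at 1059 ± 54.8 CPM in B16F10 luc2 and at 280.3 ± 19 CPM in RET (mean ± SD, n = 5; log2 difference 1.92 ± 0.10, adjusted p = 3.8e-14). Srebf1, a regulator of lipid synthesis, was 2.74-fold higher in RET (log2 difference -1.45 ± 0.08, adjusted p = 1.2e-13), as was its target Scd1 (2.26-fold, log2 difference -1.20 ± 0.14, adjusted p = 4.4e-08). Their list, cholesterol and fatty acid synthesis, had 10 of 38 members (26.3%) higher in B16F10 luc2 and 10 (26.3%) higher in RET, with a median of -0.02.

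Genes that the study measured by qPCR or discussed were compared for this pair. Kazn was at 38.7, 32.5, 24.7, 26.9 and 33.5 CPM in B16F10 luc2 and at 7.39, 9.73, 8.67, 7.81 and 6.99 CPM in RET (3.85-fold, log2 difference 1.93 ± 0.18, adjusted p = 1.7e-09). The sialyltransferase St6galnac3 (1.81-fold, log2 difference 0.86 ± 0.08, adjusted p = 4e-09), the glycine receptor subunit Glrb (1.47-fold, log2 difference 0.55 ± 0.07, adjusted p = 5.5e-07) and, of the discussed genes, the integrin Itga4 (2.13-fold, log2 difference 1.10 ± 0.14, adjusted p = 1.9e-07) were higher in B16F10 luc2. Itga4 was at 105 CPM on average in RET without replicate 3, so that both lines expressed it. The study describes strong expression of Itga4 for WT31 only, whose level was not compared here. The call of Glrb was lost with log2(TPM + 0.1) (adjusted p = 0.069). The netrin receptor Unc5c passed the test (log2 difference -0.27 ± 0.09, adjusted p = 0.019), but this call was lost without RET replicate 2 (adjusted p = 0.051), with edgeR's quasi-likelihood test (adjusted p = 0.14) and with log2(TPM + 0.1) (adjusted p = 0.073). Of the reference genes of the qPCR, Gak did not pass the test (log2 difference -0.05 ± 0.04, adjusted p = 0.32) and Srp72 was slightly higher in RET (log2 difference -0.21 ± 0.06, adjusted p = 0.0024). Thbs2, Tfap2b, Tenm3 and Ly6e, and Msx1 of the discussed genes, were at 0 to 0.386 CPM in all 10 libraries and did not pass the test. At these low levels, Tfap2b passed with log2(TPM + 0.1) (log2 difference -0.57, adjusted p = 0.04). Stambpl1 passed it (adjusted p = 0.003, higher in RET), but with 0 counts in every library of B16F10 luc2 and 0 to 3 counts in RET both lines were at the floor. Itga2, also discussed, was at 0.0384 to 0.289 CPM in B16F10 luc2 and at 0.276 to 0.618 CPM in RET, close to the floor (log2 difference -2.05 ± 0.70, adjusted p = 0.016), and its call was lost with log2(TPM + 1) (adjusted p = 0.6).

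Several genes were absent from both lines. At most 3 counts in every library of the pair and at least 1 CPM in every library of the other 3 lines were found for 29 genes in B16F10 luc2 and RET, and for 0 to 8 genes in the other 9 pairs. With at least 5 CPM in the other lines these were 11 genes, in comparison to 0 to 5. This comparison was made after the values were seen and has no test, since the pair was chosen for the similarity of its expression and all 10 pairs share lines. The 29 genes included Foxd3, a neural crest factor, with 0 counts in all 10 libraries and 38.8, 22.1 and 13.6 CPM on average in WT31, D4M and HCmel12. They also included Pxdn, a peroxidase of basement membranes, with 169, 546 and 95.4 CPM, and Ptpn13, a tyrosine phosphatase, with 106, 51.4 and 20 CPM. Conversely, 17 genes were at 1 CPM or more in every library of the pair and at the floor in the other 3 lines, in comparison to 29 genes for WT31 and D4M and 18 genes for D4M and HCmel12.

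Differences were also spread unequally over chromosomes. Relative to the median of all tested genes, the median log2 difference was 0.239 ± 0.025 on chromosome 3, 0.208 ± 0.011 on chromosome 12 and 0.193 ± 0.018 on chromosome 17 (± SD over the 5 libraries of B16F10 luc2). It was -0.249 ± 0.011 on chromosome 4, -0.223 ± 0.019 on the X chromosome and -0.162 ± 0.008 on chromosome 6. On chromosome 3, 353 of 759 tested genes (46.5%) were higher in B16F10 luc2 and 109 (14.4%) were higher in RET. On chromosome 4, 127 of 930 (13.7%) were higher in B16F10 luc2 and 451 (48.5%) were higher in RET. Copy numbers were not measured, and no test was applied to these medians. Xist had at most 3 counts per library and the Y-linked genes Ddx3y and Eif2s3y had at most 1 count per library in both lines. These 3 genes were looked up after their values were seen.

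**Figure D5:**
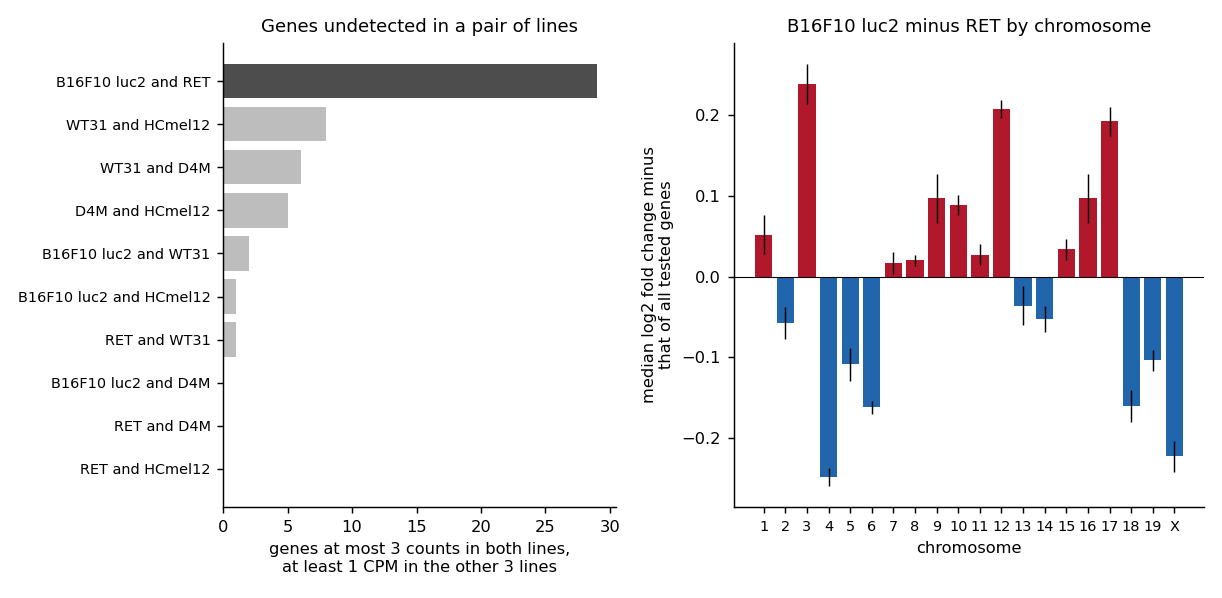
Left, number of genes at the floor in both lines of a pair and at 1 CPM or more in every library of the other 3 lines, for all 10 pairs. Right, median log2 difference (B16F10 luc2 minus RET) per chromosome relative to all tested genes, with the SD over 5 libraries of B16F10 luc2, which is highest on chromosome 3 (0.239) and lowest on chromosome 4 (-0.249).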

How the data were processed

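Total RNA of 25 cultured samples, 5 biological replicates of each of 5 melanoma lines, was sequenced, and the labels do not say how the replicates were separated, so that p-values measure the spread between these samples. The members and gene lists were chosen with earlier results of these data known. According to the submitters' processing notes, reads were trimmed with Trim Galore 0.6.4 and pseudoaligned with kallisto (given as version 0.4.6) to GRCm38.p6; the release of the annotation, the strand and any poly-A selection are not given in the sources used here. The authors deposited 1 table of estimated counts and 1 table of TPM per sample, by Ensembl gene. The count tables of both lines held values that were not whole, since kallisto divides reads among transcripts. TPM of 1 library of D4M were not used here, and results on some named genes are not reported here. Symbols and positions were matched from GENCODE M21 on GRCm38 for 55144 of 55385 genes, and promoters were taken from RefSeq.

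Counts of all 25 libraries were used without rounding, filtered with filterByExpr (line as the group) and scaled by TMM in edgeR 4.0.16, and the contrast was tested with voom and limma 3.58.1 in R 4.3.3. Each total lay between 24246815 and 25545975 counts for both lines. CPM refer to the scaled library, and a fold against a line at 3 counts or less per library was computed from this floor and is a lower bound. Folds are ratios of mean CPM. Exact permutation tests of 5 against 5 libraries have 252 arrangements and cannot go below p = 0.00794. Single libraries were compared with their group by Dixon's test. Shared 31-base sequences were counted among the transcripts of the annotation, because kallisto cannot assign such reads to 1 gene. Named genes were the 12 with the highest and lowest log2 difference at 20 CPM or more, up to 3 called members per list and direction at 5 CPM or more, genes tied to the origin of the lines, genes of the qPCR of the study or discussed in it, genes found in 1 line only and cell type markers; any other gene is marked in the text. The scripts were tested on simulated data. Alternatives were other scalings, edgeR's quasi-likelihood test and the Wald test of DESeq2 1.42.0 on rounded counts, other filters, a fit of the 10 libraries alone, a replicate block, log2(TPM + 1) and log2(TPM + 0.1) with limma, stricter calls and leaving out each library. Figures were drawn with matplotlib 3.10.9 in Python 3.11.15.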

Additional observations from a re-analysis of the deposited data

Results flagged for a closer look

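Among 325 groups of 5 libraries (a named gene in a line, leaving out genes at the floor), the highest or lowest library lay outside Dixon's 95% limit in 29, and chance flags about 1 in 20 groups. RET replicate 3 accounted for 11 of them. It was the highest RET library for Erbb3 (112 CPM, others 91.8 to 96), Id3 (73.7 CPM, others 6.97 to 12.4), Ncam1 (29.1 CPM, others 17.2 to 20.5), Nid2 (15.6 CPM, others 7.8 to 9.68), Plxna4 (0.394 CPM, others 0.0791 to 0.154) and Thbs1 (83.1 CPM, others 11.2 to 29). It was the lowest RET library for Mt1 (472 CPM, others 583 to 627), Mt2 (284 CPM, others 366 to 375), Ppargc1a (34.2 CPM, others 46.7 to 50.3), Scd1 (152 CPM, others 183 to 190.1) and Trim25 (10.6 CPM, others 16.4 to 18.4). In other single libraries of RET, the value was high for Arhgap45 (29.8 CPM, others 25.5 to 26.5) in replicate 1, Sema6a (61.1 CPM, others 47.3 to 50) in replicate 2, Sema7a (0.988 CPM, others 0.502 to 0.6) in replicate 1 and Thbs2 (0.386 CPM, others 0 to 0.0801) in replicate 5. It was low for Adamts9 (5.32 CPM, others 6.4 to 6.74) in replicate 4 and Pbxip1 (0.12 CPM, others 0.232 to 0.26) in replicate 4. In B16F10 luc2, a single library was high for Cd68 (5.15 CPM, others 2.93 to 3.48) in replicate 5, Cxcl10 (6.81 CPM, others 3.25 to 4) in replicate 5, Itga2 (0.289 CPM, others 0.0384 to 0.0825) in replicate 3, Oca2 (9.05 CPM, others 6.84 to 7.39) in replicate 1, Prex1 (0.207 CPM, others 0.0384 to 0.0794) in replicate 2, Sparc (2734 CPM, others 2461 to 2524) in replicate 2, Spry1 (28.7 CPM, others 20.4 to 22.7) in replicate 1 and Tgfb1 (22.8 CPM, others 16.5 to 17.9) in replicate 4. A single library was low for Col4a4 (8.04 CPM, others 10.4 to 11.1) in replicate 3, Col9a1 (0.238 CPM, others 0.536 to 0.577) in replicate 1, Meis2 (101 CPM, others 118 to 124) in replicate 1 and Thbs3 (21.2 CPM, others 25.6 to 27.1) in replicate 1. The cause of these values was not tested.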

How the results depend on the processing

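Counts over all genes stayed within 1.5 times of the reported ones under other scalings, tests, filters, samples and TPM, with 3180 to 4040 genes higher in B16F10 luc2 and 3379 to 4529 higher in RET. They were 3027 and 3148 at an adjusted p under 0.01 and fell to 928 and 1247 at 2-fold or more. Leaving out each library in turn gave 3551 to 3666 and 3760 to 3875 genes. Scaling by library size alone shifted the median of all genes to -0.047 and the share of calls higher in B16F10 luc2 from 49.0 to 42.3%. Of 3626 values of 176 named genes under alternatives, 3571 kept direction and call, 35 lost and 17 gained the call and 3 changed sign, all of Nras (-0.05 in the fits of TPM). At 2-fold or more, the number of members higher in B16F10 luc2 became 7 (pigment), 1 (melanosome), 3 (ERK output), 0 (drivers), 0 (p53 targets), 2 (MHC class I), 1 (interferon), 1 (NF-kB), 5 (angiogenic), 5 (matrix receptors), 2 (cadherins), 11 (axon guidance), 2 (cell cycle), 4 (glycolysis), 1 (oxidative phosphorylation), 10 (Hox and cofactors), 5 (oxidative stress), 6 (imprinted) and 3 (sialyltransferases). At 2-fold or more, the number higher in RET became 0 (pigment), 0 (melanosome), 3 (growth factor receptors), 2 (metallothioneins), 1 (ERK output), 1 (drivers), 5 (p53 targets), 10 (MHC class I), 7 (NF-kB), 7 (cadherins), 13 (axon guidance), 18 (matrix), 6 (mesenchymal), 2 (cell cycle), 5 (glycolysis), 0 (oxidative phosphorylation), 1 (Hox and cofactors), 8 (Wnt), 0 (oxidative stress) and 0 (sialyltransferases). With at least 10 counts in every library, the number of members higher in B16F10 luc2 became 1 (growth factor receptors), 11 (axon guidance), 1 (neural crest), 7 (Hox and cofactors) and 4 (Wnt). With at least 10 counts in every library, the number higher in RET became 4 (growth factor receptors), 10 (MHC class I), 20 (interferon), 6 (NF-kB), 7 (matrix receptors), 7 (cadherins), 14 (axon guidance) and 15 (matrix). Other counts that moved by over 1.5 times were 2 metallothioneins higher in RET with log2(TPM + 1) without a filter, 13 ERK output genes higher in B16F10 luc2 with DESeq2 Wald test, 3 drivers higher in B16F10 luc2 with library size scaling or log2(TPM + 1) or log2(TPM + 0.1) or log2(TPM + 1) without a filter, 3 p53 targets higher in B16F10 luc2 with no filter on low counts or log2(TPM + 1) without a filter or adjusted p under 0.01, 2 adhesion genes higher in B16F10 luc2 with no filter on low counts, 7 adhesion genes higher in RET with log2(TPM + 1) without a filter, 26 cell cycle genes higher in B16F10 luc2 with a fit of the 10 libraries alone, 19 cell cycle genes higher in RET with a fit of the 10 libraries alone, 15 oxidative phosphorylation genes higher in RET with library size scaling, 4 Wnt pathway genes higher in B16F10 luc2 with a fit of the 10 libraries alone and 6 sialyltransferases higher in RET with a fit of the 10 libraries alone. Genes detected in 1 line only numbered 28 and 51 at 1 CPM or more and 17 and 25 with at most 10 counts in the other line. Over genes with a mean of at least 5 CPM, the chromosome medians were 0.277 (3), 0.22 (12) and -0.163 (X). Libraries with the same replicate number were not more alike than others. Correlations of the deviations were -0.09 to -0.031 for the same number, all of them negative, and -0.058 to 0.078 for different numbers. With the replicate block, 3813 genes were higher in B16F10 luc2 and 4033 in RET, and of these 176 named genes only Unc5c lost its call (adjusted p = 0.058). The cause of these shifts was not tested. On simulated counts, the fit found 72 of 100 genes changed by 0.5 and 95 of 100 changed by 1 on the log2 scale, and 14 unchanged genes were called. The changed genes were drawn only from those above a minimum mean count, so that recovery at lower levels was not tested. Small differences can thus be missed at this depth and number of libraries.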
